A study of Mus musculus with 16 samples.

Results

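The RNA of 9 genes that write or erase DNA methylation or form the methyltransferase core of Polycomb repressive complex 2 (PRC2) was followed in cultured mouse neural stem cells (NSC) in which the lncRNA *RUS* was targeted. They were *Dnmt1*, *Dnmt3a* and *Dnmt3b* (DNA methyltransferases), *Tet1*, *Tet2* and *Tet3* (dioxygenases that oxidise 5-methylcytosine), *Ezh1* and *Ezh2* (the alternative catalytic subunits of PRC2) and *Suz12* (a core subunit of PRC2). They were chosen by gene name, 9 of 55365 lines that name a gene in both deposited tables, and all 9 were measured in all 16 libraries. The cells came from cortices of C57BL/6 embryos at E15-16, pooled from embryos of both sexes, and were grown as primary cultures that can hold several cell types. Every culture carried a lentivirus, added 1 d after seeding, from a pLKO.1 vector. It expressed a scrambled shRNA in the controls (shRNA-CON) or an shRNA against *RUS* (shRNA-RUS). RNA was taken on day 5 after seeding, the day on which differentiation was induced, and on day 7, with 4 libraries for each shRNA and day. No source names separate animals for the libraries, so p-values measure the spread between these libraries, which may be technical.

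DNA methylation at CpG is copied to the new strand after replication by Dnmt1 and is set up at new sites by Dnmt3a and Dnmt3b. Tet enzymes start its removal through 5-hydroxymethylcytosine, a base that is abundant in neurons. PRC2 methylates H3K27 and holds developmental genes silent. In the developing cortex Ezh2 is the form of dividing progenitors, whereas Ezh1 is known to remain in cells that have left the cycle.

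The promoters of 4 of these genes are shown, picked after their RNA values and word matches were seen. An E2F word was found in windows of 3 members, *Dnmt1*, *Ezh2* and *Suz12*, whose RNA was lower on both days. *Ezh1*, whose RNA was higher on both days, had none. *Dnmt3a* and *Tet3*, which were called lower on day 5, had none either. E2F factors act on many genes of DNA synthesis. The words searched on both strands were TTTCCCGC, TTTCGCGC, TTTGCCGC and TTTGGCGC, and none of the matches shown overlaps another. Each sequence is the RefSeq window of GRCm38.p6 from 250 bases before to 50 bases after an annotated start, read 5′ to 3′ on the strand of the gene, with the E2F words in capitals. The *Dnmt1* window is chr9:20952574-20952873 on the minus strand, 1 of 3 windows of this gene. The *Ezh2* window is chr6:47594981-47595280 on the minus strand, the *Suz12* window is chr11:79992856-79993155 on the plus strand, and the *Ezh1* window is chr11:101226414-101226713 on the minus strand.
Dnmt1: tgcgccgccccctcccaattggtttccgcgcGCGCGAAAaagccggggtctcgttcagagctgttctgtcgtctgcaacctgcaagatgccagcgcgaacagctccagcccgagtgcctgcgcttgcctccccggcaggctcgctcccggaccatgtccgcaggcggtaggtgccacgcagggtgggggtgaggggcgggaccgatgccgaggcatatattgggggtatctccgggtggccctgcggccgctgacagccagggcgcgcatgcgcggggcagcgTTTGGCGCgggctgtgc
Ezh2: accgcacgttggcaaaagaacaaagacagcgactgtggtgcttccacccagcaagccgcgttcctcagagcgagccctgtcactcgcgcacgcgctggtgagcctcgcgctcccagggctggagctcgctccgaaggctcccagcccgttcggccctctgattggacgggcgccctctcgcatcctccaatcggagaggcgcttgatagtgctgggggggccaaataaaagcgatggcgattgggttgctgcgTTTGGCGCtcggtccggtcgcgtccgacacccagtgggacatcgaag
Suz12: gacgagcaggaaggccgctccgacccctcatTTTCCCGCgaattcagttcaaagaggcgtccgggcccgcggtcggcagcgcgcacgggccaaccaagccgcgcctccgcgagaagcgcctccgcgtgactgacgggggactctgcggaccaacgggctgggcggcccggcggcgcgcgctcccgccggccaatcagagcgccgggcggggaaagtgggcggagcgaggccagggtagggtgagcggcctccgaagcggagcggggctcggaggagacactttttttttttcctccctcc
Ezh1: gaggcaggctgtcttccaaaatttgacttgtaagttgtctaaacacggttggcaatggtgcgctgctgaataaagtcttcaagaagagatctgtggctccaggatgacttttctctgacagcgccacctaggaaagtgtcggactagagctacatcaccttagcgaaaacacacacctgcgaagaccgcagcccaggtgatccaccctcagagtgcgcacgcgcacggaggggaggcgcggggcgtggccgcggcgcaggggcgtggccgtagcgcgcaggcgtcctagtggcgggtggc
In *Dnmt1* the words lay at bases -219 to -212 from the start (on the other strand) and at 34 to 41. In *Ezh2* the word lay at 4 to 11, and in *Suz12* at -219 to -212. The other 6 members, with *Dnmt3a* in 3 windows, had no such word, while 2.6% of 27025 genes had one in a window. Each E2F word holds CG. The windows shown had 33 (*Dnmt1*), 31 (*Ezh2*), 41 (*Suz12*) and 23 (*Ezh1*) CpG, against a median of 7 over all windows. The share of 2.6% is not matched for this, so it does not measure an enrichment. The CHR word TTTGAA, bound by repressor complexes of cell cycle genes, was found in a window of *Dnmt1*, of *Dnmt3b* and of *Suz12*, and in 20.2% of all genes. These matches describe letters in a window, and binding of a factor was not measured here. A link between the words and the RNA changes was not tested.

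Levels are given as TPM (a share of the transcripts of a library, corrected for their length), scaled between libraries by factors that come from the median gene among those with at least 1 TPM throughout. The factors were 0.943 to 1.02 with shRNA-CON and 0.845 to 0.928 with shRNA-RUS on day 5, and 1.07 to 1.09 and 1.08 to 1.10 on day 7. Fold changes are on log2(scaled TPM + 0.1), and genes with an adjusted p under 0.05 from limma were called. The targeted lncRNA, *Gm20754*, ran from 0.117 to 0.235 scaled TPM with shRNA-CON and from 0 to 0.345 with shRNA-RUS on day 5, and from 0.238 to 0.661 and from 0 to 0.5 on day 7. Its groups overlapped on both days and it was not called (log2 -0.40, adjusted p = 0.519, and -1.28, adjusted p = 0.114), at a level where the added 0.1 weighs on the fold change. Replicate 4 of shRNA-RUS on day 5 had 0.345, the highest value of that day, and for several members it lay nearer to the controls than the other 3 libraries did, while for *Ezh1* it was the farthest from them (19.7). Results on day 5 are also given without it, but since it was singled out on these values, larger effects without it follow from that choice and are no added support. Among the cell type markers, the summed scaled TPM of 6 microglia genes was 180.7 to 193.3 with shRNA-CON and 76.15 to 97.64 with shRNA-RUS on day 7, where all 6 were called lower, while on day 5 the ranges overlapped and 2 were called lower (*Csf1r* and *Tmem119*). For 6 oligodendrocyte lineage genes it was 97.2 to 121 against 60.58 to 74.53 on day 5 and 176.2 to 208.1 against 93.86 to 142.3 on day 7. For 6 endothelial, pericyte and fibroblast genes the sums overlapped on day 5, with *Pdgfrb* called higher (log2 0.32) and *Kdr* lower (-0.91). On day 7 the sums were 17.64 to 18.96 against 30.93 to 33.67, and *Pdgfrb* alone went from a mean of 10.6 to 26.3 scaled TPM. *Pdgfrb* (log2 1.32), *Col1a1* (1.23) and *Col3a1* (0.93) were called higher on that day and *Kdr* lower (-1.30). *Cldn5* was at 0 in every shRNA-CON library on day 7. That list and those that follow were mixed. In a sum the genes with the highest levels weigh most, such as *Gfap* and *Aldoc* among the astrocyte genes and *Vim* and *Fabp7* among the NSC genes. The sum of 6 astrocyte genes was 3739 to 3948 against 5147 to 5643 on day 5 and 1980 to 2048 against 2627 to 2780 on day 7, but 2 were called higher (*Gfap* and *Aldoc*) and 1 lower (*Gjb6*) on day 5, and 3 higher and 1 lower (*S100b*) on day 7. The sum of 8 NSC genes was 12470 to 14620 against 17740 to 21230 on day 5 and 6822 to 7079 against 7036 to 7695 on day 7. Of these, *Vim*, *Fabp7* and *Pax6* were called higher and *Nes*, *Hes1* and *Hes5* lower on day 5, and 2 were higher and 4 lower on day 7. The sums of 8 neuron genes overlapped on both days, yet 3 were called higher and 2 lower on day 5, and 4 higher (*Mapt*, *Snap25*, *Syt1* and *Rbfox3*) and 2 lower (*Map2* and *Stmn2*) on day 7. These counts stand beside 14.8% of all genes called higher and 17.9% called lower on day 5, and 23.4% and 25.8% on day 7. The part of these shifts in the results was not tested. In such bulk samples fewer cells of a type and less RNA per cell cannot be told apart.

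On day 5 with shRNA-CON, *Ezh2* had the highest level of the 9 genes (83.4 ± 2.34 scaled TPM, SD, n = 4), followed by *Dnmt1* (43.6 ± 2.41), *Suz12* (29.4 ± 2.26), *Dnmt3a* (18.7 ± 1.55), *Tet2* (11.9 ± 1.07), *Ezh1* (10.7 ± 0.718), *Tet3* (7.97 ± 0.753), *Tet1* (4.10 ± 0.735) and *Dnmt3b* (1.24 ± 0.227). Of the neighbours in this order, only *Tet2* and *Ezh1* overlapped between libraries. On day 7 with shRNA-RUS, *Ezh2* (51.8 ± 3.50) was still the highest and *Dnmt3b* (2.40 ± 0.164) the lowest. Between them, *Dnmt1* (31.0 ± 0.582) and *Ezh1* (27.4 ± 2.58) overlapped, as *Ezh1* did with *Dnmt3a* (27.6 ± 0.773), *Suz12* (26.3 ± 2.83) and *Tet2* (24.8 ± 0.946). *Ezh1* thus stood among the middle genes there, above *Tet3* (16.2 ± 0.463) and *Tet1* (8.16 ± 0.136).

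**Figure D1:**
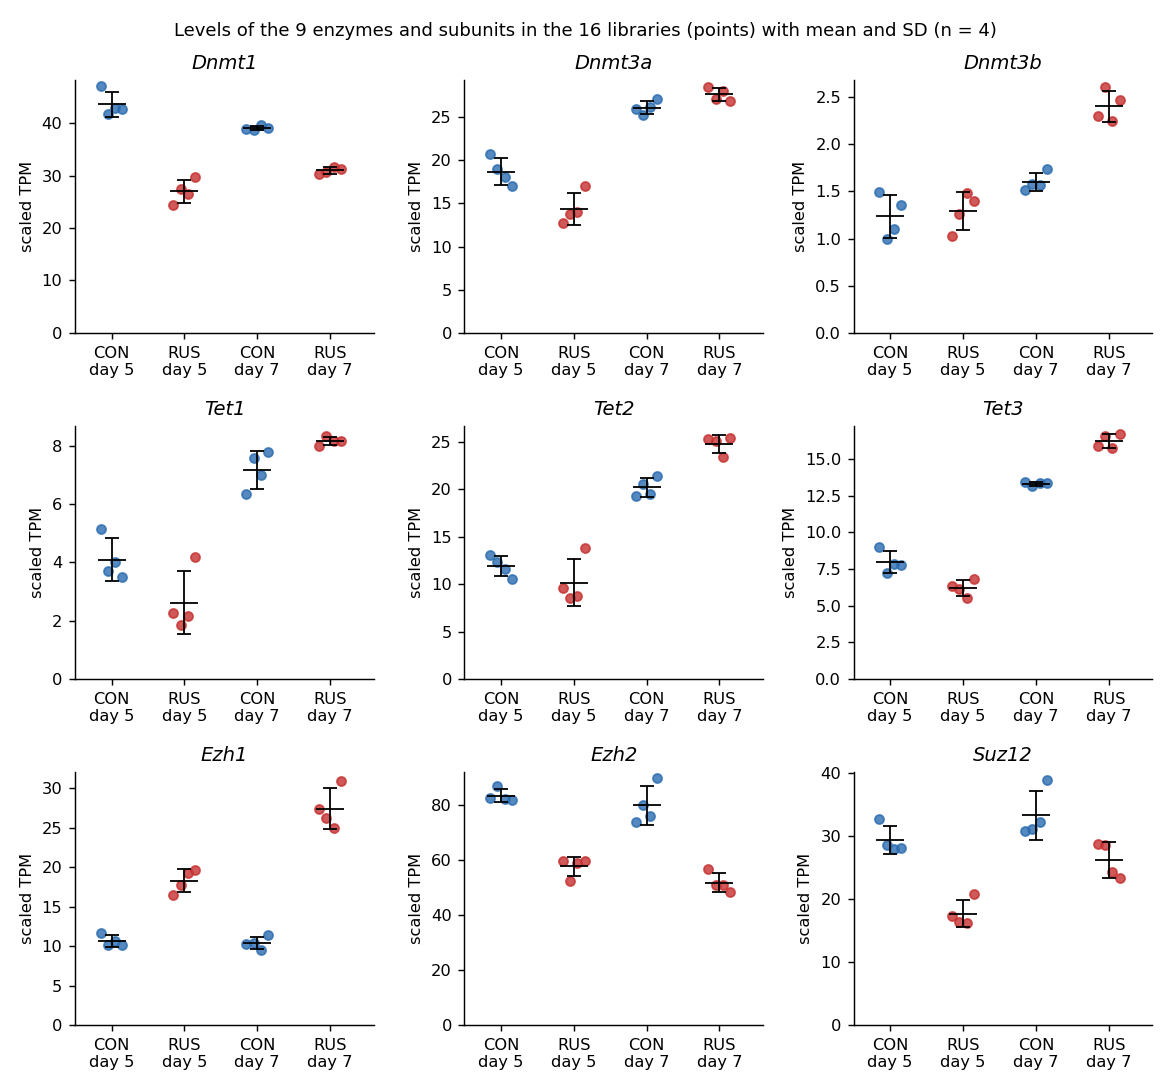
Scaled TPM of the 9 genes in each library (vertical axis from 0, 1 panel per gene), with shRNA-CON in blue and shRNA-RUS in red for day 5 and day 7, and the mean and SD of 4 libraries in black. *Dnmt1*, *Ezh2* and *Suz12* were lower and *Ezh1* was higher with shRNA-RUS in every library on both days, whereas the 3 *Tet* genes were higher on day 7 than on day 5 with either shRNA.

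With shRNA-RUS, 5 of the 9 genes were lower on day 5 (*Dnmt1*, *Dnmt3a*, *Tet3*, *Ezh2* and *Suz12*) and 1 was higher (*Ezh1*). Over all 22581 genes tested on that day, 17.9% were called lower and 14.8% higher. On day 7, 3 members were lower (*Dnmt1*, *Ezh2* and *Suz12*) and 5 were higher (*Dnmt3b*, *Tet1*, *Tet2*, *Tet3* and *Ezh1*), against 25.8% called lower and 23.4% called higher of 24606 genes. The median log2 change of the 9 members was -0.379 on day 5 and 0.204 on day 7, and that of all genes tested was -0.0608 and -0.0293. *Ezh1* rose and *Dnmt1*, *Ezh2* and *Suz12* fell on both days, and only *Tet3* was called in opposite directions. With TPM as deposited, without the library factors, the median of all genes on day 5 was -0.2054 and 22.65% of the calls were increases, against 45.36% with the factors and 34.51% with scaling to the 75th percentile. Without replicate 4 of shRNA-RUS on day 5, 7 members were lower on that day, *Tet1* and *Tet2* added, where 20.3% of all genes were called lower and 17.4% higher. With any other single library left out, 4 or 5 members were lower. The calls of *Dnmt1*, *Ezh1*, *Ezh2* and *Suz12* on day 5 held in all 17 alternatives, this one included.

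**Figure D2:**
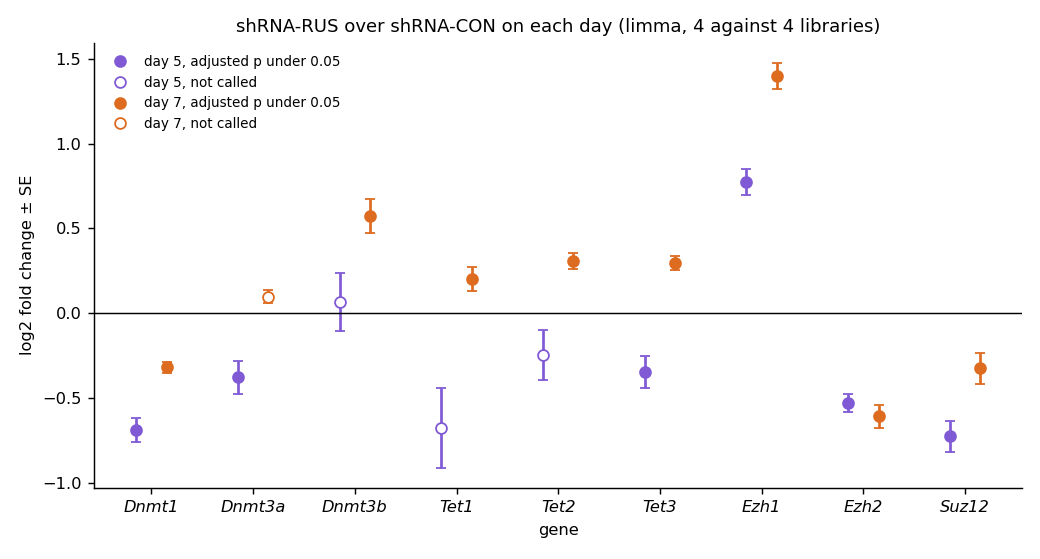
Log2 fold change of shRNA-RUS over shRNA-CON with its SE (vertical axis) for the 9 genes, on day 5 (purple) and day 7 (orange), from limma with 4 against 4 libraries. Filled points had an adjusted p under 0.05, and the *Tet* genes lay below 0 on day 5 and above 0 on day 7, with *Tet1* and *Tet2* open on day 5.

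*Dnmt1*, the maintenance methyltransferase (GRCm38, chromosome 9, 20907209 to 20959888, minus strand), had 47.1, 41.7, 42.9 and 42.7 scaled TPM with shRNA-CON on day 5 and 24.4, 27.5, 26.5 and 29.7 with shRNA-RUS. All 4 shRNA-RUS libraries lay below all controls (log2 -0.69, SE 0.071, adjusted p = 1.31e-04, 1.61-fold lower). By day 7 the values were 38.8, 38.6, 39.5 and 39.1 with shRNA-CON and 30.4, 30.6, 31.7 and 31.2 with shRNA-RUS. The groups were again apart, by less (log2 -0.32, adjusted p = 4.01e-05, 1.25-fold lower). The log2 effects of the 2 days differed, day 7 minus day 5, by 0.36 (adjusted p = 0.00247).

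*Dnmt3a*, a de novo methyltransferase (chromosome 12, 3806007 to 3914443, plus strand), had 20.7, 18.9, 18.0 and 17.0 scaled TPM with shRNA-CON on day 5 and 12.7, 13.8, 14.0 and 17.0 with shRNA-RUS. The libraries did not overlap, but replicate 4 of shRNA-RUS (16.99) lay just under the lowest control (17.04), and the log2 change of -0.38 (SE 0.098, adjusted p = 0.0159) was -0.46 without it. On day 7 the controls had 25.9, 25.3, 26.2 and 27.04 and the shRNA-RUS libraries 28.5, 27.1, 28.0 and 26.8, which overlapped (log2 0.10, adjusted p = 0.0675). The effect differed between the days by 0.46 (adjusted p = 0.00457). *Dnmt3b*, the de novo enzyme of early development (chromosome 2, 153649450 to 153687730, plus strand), was low. It had 1.49, 0.997, 1.1 and 1.36 with shRNA-CON and 1.03, 1.26, 1.48 and 1.4 with shRNA-RUS on day 5, which overlapped (log2 0.07, SE 0.17, adjusted p = 0.806). Its values on day 7 were 1.51, 1.58, 1.57 and 1.74 with shRNA-CON and 2.3, 2.6, 2.24 and 2.46 with shRNA-RUS, a clear separation (log2 0.57, adjusted p = 9.77e-04, 1.49-fold higher). The difference between the days was 0.49 and was not called (adjusted p = 0.0644), but it was in 6 of 25 alternatives. These were adding 1 before the log2 (adjusted p = 0.0327), TPM as deposited (adjusted p = 0.0259), 75th percentile scaling (adjusted p = 0.0494), no trend (adjusted p = 0.0454), and the fits without replicate 2 of shRNA-CON (adjusted p = 0.0306) or replicate 3 of shRNA-RUS (adjusted p = 0.0481) of day 5.

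All 3 *Tet* genes were higher with shRNA-RUS on day 7. *Tet1*, best known from embryonic stem cells (chromosome 10, 62804570 to 62908996, minus strand), had 5.15, 3.72, 4.03 and 3.49 scaled TPM with shRNA-CON on day 5 and 2.28, 1.85, 2.17 and 4.2 with shRNA-RUS. Replicate 4 of shRNA-RUS lay within the controls, and the gene was not called with it (log2 -0.67, SE 0.24, adjusted p = 0.0546) but was called without it (log2 -0.91, adjusted p = 0.00175). With all libraries it was also called with TPM as deposited (adjusted p = 0.0361), with 75th percentile scaling (adjusted p = 0.0428) and when genes from 1 TPM upwards were tested (adjusted p = 0.0401). Its day 7 values were 6.35, 7.57, 6.98 and 7.77 with shRNA-CON and 8.01, 8.34, 8.16 and 8.15 with shRNA-RUS. The groups did not overlap, yet the call (log2 0.20, adjusted p = 0.0389) was lost in 9 of 17 alternatives, with adjusted p up to 0.0931, among them leaving out replicate 1 or 3 of shRNA-CON or any 1 shRNA-RUS library of day 7.

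*Tet2*, which lacks the DNA-binding CXXC domain of its relatives (chromosome 3, 133463679 to 133545139, minus strand), had 13.0, 12.4, 11.6 and 10.5 scaled TPM with shRNA-CON on day 5 and 9.59, 8.54, 8.71 and 13.8 with shRNA-RUS. Replicate 4 of shRNA-RUS was above every control, and the change was not called (log2 -0.25, adjusted p = 0.240), whereas without it the log2 change was -0.40 (adjusted p = 0.00744). On day 7 it had 19.3, 20.5, 19.5 and 21.4 with shRNA-CON and 25.3, 25.1, 23.4 and 25.4 with shRNA-RUS, all higher (log2 0.31, adjusted p = 4.42e-04). *Tet3*, the oxidase of the zygote that is also found in neurons (chromosome 6, 83362373 to 83459084, minus strand), had 9.03, 7.25, 7.88 and 7.75 on day 5 with shRNA-CON and 6.37, 6.16, 5.53 and 6.86 with shRNA-RUS. All 4 were lower (log2 -0.35, SE 0.095, adjusted p = 0.0199), a call lost in 4 of 17 alternatives, among them without replicate 1 of shRNA-CON (adjusted p = 0.0531) or replicate 3 of shRNA-RUS (adjusted p = 0.0534) and with quantile normalization (adjusted p = 0.111). Day 7 gave 13.4, 13.1, 13.4 and 13.3 with shRNA-CON and 15.9, 16.5, 15.8 and 16.7 with shRNA-RUS, all higher (log2 0.30, adjusted p = 2.76e-04). The difference of the effect between the days was called for *Tet1* (0.87, adjusted p = 0.0214), *Tet2* (0.54, adjusted p = 0.0218) and *Tet3* (0.63, adjusted p = 2.92e-04).

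*Ezh2* (chromosome 6, 47530139 to 47595341, minus strand) had 82.7, 86.9, 82.3 and 81.8 scaled TPM with shRNA-CON on day 5 and 59.6, 52.6, 59.1 and 59.9 with shRNA-RUS. The groups were far apart (log2 -0.53, SE 0.055, adjusted p = 1.39e-04, 1.44-fold lower). On day 7 the controls had 73.9, 80.2, 76.0 and 89.9 and the shRNA-RUS libraries 56.8, 51.0, 51.1 and 48.5, again with no overlap (log2 -0.61, adjusted p = 5.30e-05, 1.53-fold lower). No difference of the effect between the days was detected (-0.09, adjusted p = 0.481). Its paralog *Ezh1* (chromosome 11, 101191115 to 101226463, minus strand) went the other way. It had 11.7, 10.1, 10.7 and 10.2 with shRNA-CON and 16.5, 17.7, 19.3 and 19.7 with shRNA-RUS on day 5, a 1.71-fold increase (log2 0.77, SE 0.078, adjusted p = 1.24e-04). On day 7 it had 10.3, 10.4, 9.51 and 11.4 with shRNA-CON and 27.4, 26.3, 24.9 and 30.9 with shRNA-RUS, a 2.64-fold increase (log2 1.40, adjusted p = 7.63e-07). This was the largest change of the 9 genes on either day, and the effect was larger on day 7 by 0.61 (adjusted p = 8.99e-04).

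*Suz12*, without which PRC2 is unstable (chromosome 11, 79993106 to 80034123, plus strand), had 32.8, 28.6, 27.9 and 28.2 scaled TPM with shRNA-CON on day 5 and 17.4, 16.4, 16.3 and 20.9 with shRNA-RUS. All shRNA-RUS libraries were lower (log2 -0.73, SE 0.090, adjusted p = 3.64e-04, 1.65-fold lower). On day 7 it had 30.8, 31.2, 32.3 and 38.993 with shRNA-CON and 28.8, 28.7, 24.3 and 23.4 with shRNA-RUS, a smaller separation (log2 -0.33, adjusted p = 0.0157, 1.25-fold lower). The difference between the days was 0.39 (adjusted p = 0.0457), a call lost in 16 of 25 alternatives, with adjusted p up to 0.127. Of these, 12 left out 1 library each, and the adjusted p was 0.0936 without replicate 1 of shRNA-CON on day 5. Annotated genes that overlap the 9 members had at most 0.681 TPM on average (at *Tet3*), and *Ezh1* had none.

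Counted over the 9 genes, the knockdown effect differed between the days for 7, all with a higher value on day 7, and for none with a lower value. Over the 23789 genes tested in both tables, 15.2% had a higher and 14.6% a lower effect on day 7. With TPM as deposited 73.52% of such calls were higher, against 51.14% with the factors, and the median of all genes was 0.1916 against 0.0376. With the factors, the differences of the 7 members ran from 0.36 for *Dnmt1* to 0.87 for *Tet1*.

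Ratios within a library do not depend on its scaling. The ratio of *Ezh2* to *Ezh1* was 7.09, 8.58, 7.70 and 8.05 with shRNA-CON on day 5 and 3.61, 2.97, 3.07 and 3.04 with shRNA-RUS. On day 7 it was 7.19, 7.68, 7.99 and 7.86 with shRNA-CON and 2.07, 1.94, 2.05 and 1.57 with shRNA-RUS. The ratio of geometric means was therefore 2.48-fold lower on day 5 and 4.05-fold lower on day 7. It also fell 1.67-fold from day 5 to day 7 with shRNA-RUS, while with shRNA-CON the libraries of both days overlapped. The ratio of *Dnmt3a* to *Dnmt1* was 0.399 to 0.455 with shRNA-CON and 0.501 to 0.572 with shRNA-RUS on day 5, and 0.654 to 0.691 and 0.859 to 0.940 on day 7, so that no groups overlapped in any of the 4 comparisons. The ratio of *Dnmt3a* to *Dnmt3b* was lower with shRNA-RUS in every library on day 5 (12.6 to 19.0 against 9.45 to 12.3) and on day 7 (15.5 to 17.1 against 10.4 to 12.5). For each of these 9 separations the exact two-sided permutation test gave p = 0.0286, the smallest that 4 against 4 libraries allow, and p = 0.0508 after Benjamini-Hochberg adjustment over 16 tests, so none was called. The ratio of *Tet3* to *Tet1* overlapped on both days (exact p = 0.2 on day 5 and 0.257 on day 7). Without replicate 4 of shRNA-RUS on day 5, or without replicate 1 of shRNA-CON on day 7, 10 of the 16 tests had an adjusted exact p of 0.0457. These 10 again sat at the smallest p that the libraries allow. Their adjusted p depends on how many of the 16 tests reach it, so the lower value is no added support for a ratio.

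**Figure D3:**
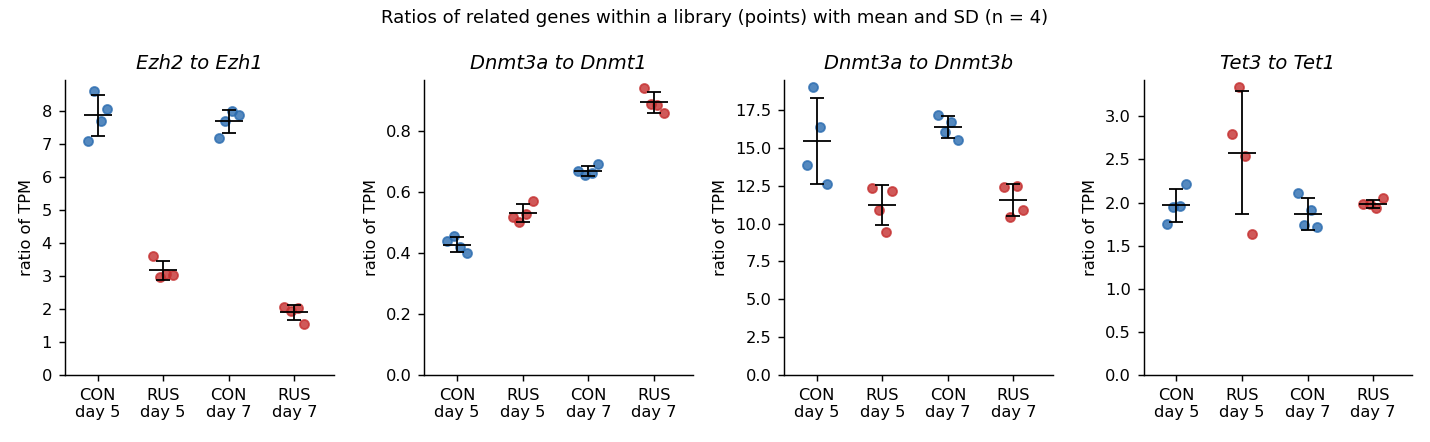
Ratios of TPM between related genes within each library (vertical axis from 0), with shRNA-CON in blue, shRNA-RUS in red, and the mean and SD of 4 libraries in black. The ratio of *Ezh2* to *Ezh1* lay between 7.09 and 8.58 in all 8 control libraries, and at most at 3.61 with shRNA-RUS.

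From day 5 to day 7, 5 members rose with shRNA-CON (all 3 *Tet* genes, *Dnmt3a* and *Dnmt3b*) and 1 fell (*Dnmt1*), where 26.9% of 23789 genes were called higher and 21.6% lower. With shRNA-RUS, 8 rose and 1, *Ezh2*, was called lower, where 35.0% of all genes were called higher and 25.8% lower. The medians of all genes were 0.0673 and 0.131, and with TPM as deposited they were 0.2047 and 0.4146. The share of increases among all calls was 55.47% with shRNA-CON and 57.55% with shRNA-RUS, against 71.4% and 76.9% with TPM as deposited, so that small changes between days depend on the scaling.

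The *Tet* genes had the largest changes between the days. With shRNA-CON, *Tet1* rose 1.74-fold (log2 0.80, adjusted p = 0.00205), *Tet2* 1.70-fold (log2 0.76, adjusted p = 5.68e-05) and *Tet3* 1.67-fold (log2 0.74, adjusted p = 4.25e-07). With shRNA-RUS, *Tet1* rose 3.18-fold (log2 1.67, adjusted p = 1.16e-06), *Tet2* 2.47-fold (log2 1.31, adjusted p = 1.05e-07) and *Tet3* 2.58-fold (log2 1.37, adjusted p = 2.86e-10). *Dnmt3a* rose 1.40-fold and 1.93-fold (adjusted p = 7.18e-05 and 3.16e-08). These 8 calls held in 25 of 25 alternatives each. *Dnmt3b* rose by log2 0.36 with shRNA-CON (adjusted p = 0.0378, lost in 8 of 25 alternatives, among them leaving out replicate 2 or 3 of day 5 or replicate 2, 3 or 4 of day 7 of shRNA-CON, and with log2 0.12 and adjusted p = 0.498 under quantile normalization) and by 0.85 with shRNA-RUS (adjusted p = 4.70e-05).

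*Ezh1* and *Suz12* rose with shRNA-RUS, by log2 0.58 (adjusted p = 1.09e-05) and 0.57 (adjusted p = 1.13e-04). With shRNA-CON the libraries of both days overlapped for *Ezh1* (log2 -0.03, adjusted p = 0.760) and for *Suz12* (log2 0.18, adjusted p = 0.154), although *Suz12* was called higher with TPM as deposited (log2 0.33, adjusted p = 0.0219). *Dnmt1* fell by 0.16 on the log2 scale with shRNA-CON (adjusted p = 0.0233) and rose by 0.20 with shRNA-RUS (adjusted p = 0.00444), but with TPM as deposited the value with shRNA-CON was -0.0068 (adjusted p = 0.954) and that with shRNA-RUS 0.52. The rises of *Ezh1* and *Suz12* with shRNA-RUS were then 0.90 and 0.89. The call of *Dnmt1* with shRNA-CON was also lost without replicate 1 of shRNA-CON on day 5 (adjusted p = 0.0776) or replicate 2 on day 7 (adjusted p = 0.0509). *Ezh2* gave no direction that held. With shRNA-RUS its libraries overlapped between the days and the log2 change was -0.16 (adjusted p = 0.0442) with the factors and 0.17 (adjusted p = 0.0412) with TPM as deposited, and leaving out any of 10 single libraries took the call away.

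**Figure D4:**
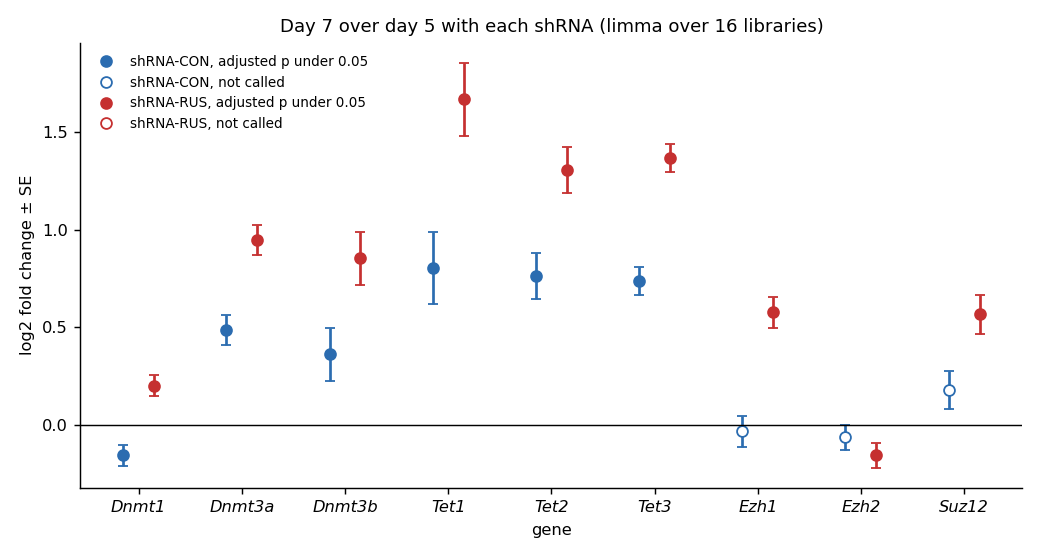
Log2 fold change of day 7 over day 5 with its SE (vertical axis) for the 9 genes, with shRNA-CON in blue and shRNA-RUS in red, from 1 limma fit over 16 libraries. Filled points had an adjusted p under 0.05. The *Tet* genes had values of 0.74 to 0.80 with shRNA-CON and 1.31 to 1.67 with shRNA-RUS.

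The other subunits of PRC2 did not move as 1 group. Of 9, 1 was higher and 2 were lower on day 5, and 2 were higher and 3 lower on day 7, with medians of -0.0323 and -0.0924. Of all genes tested, 14.8% were called higher and 17.9% lower on day 5 and 23.4% and 25.8% on day 7, so these counts lay near the background. *Phf19*, a Polycomb-like protein that brings PRC2 to chromatin, fell from 16.6 ± 0.661 to 10.01 ± 1.54 scaled TPM on day 5 and from 18.8 ± 0.880 to 7.06 ± 0.547 on day 7 (SD, n = 4). *Phf1*, of the same family, rose from 8.21 ± 0.840 to 15.0 ± 1.77 and from 9.31 ± 0.482 to 16.7 ± 0.859. The third member, *Mtf2*, fell on day 5 (log2 -0.47, adjusted p = 0.00832). *Jarid2*, a cofactor that binds nucleosomes, rose on day 7 (log2 0.45, adjusted p = 6.61e-05), and *Rbbp7*, a histone-binding subunit, fell by 0.18 on the log2 scale (adjusted p = 3.44e-04). The core subunit *Eed* was not called on day 5 (log2 -0.15, adjusted p = 0.0695) or day 7 (log2 0.06, adjusted p = 0.523).

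Of 19 subunits of PRC1, which ubiquitinates H2A and reads H3K27 methylation, 4 were higher and 5 lower on day 5, and 10 were higher and 4 lower on day 7. Their medians were -0.0168 and 0.156, and the same shares of all genes, 14.8% and 17.9% on day 5 and 23.4% and 25.8% on day 7, stand beside these counts. Among the CBX readers, *Cbx7* rose from 7.70 ± 0.452 to 10.7 ± 0.863 scaled TPM on day 5 and from 7.53 ± 0.351 to 22.9 ± 2.54 on day 7, and *Cbx6* from 36.3 ± 2.66 to 61.7 ± 4.91 and from 43.2 ± 4.16 to 90.8 ± 5.76. *Cbx2* fell on day 5 (log2 -0.52, adjusted p = 0.00198), and *Cbx8* on day 7 (log2 -0.27, adjusted p = 0.00299). *Pcgf5*, a subunit of variant PRC1, fell on day 7 (log2 -0.72, adjusted p = 2.44e-05). *Rybp*, of the same variant complexes, fell on day 5 (log2 -0.62, adjusted p = 0.00103) and rose on day 7 (log2 0.21, adjusted p = 0.0250).

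The enzymes that remove these marks were higher on day 7. All 6 H3K27 demethylases and genes of the H2A deubiquitinase PR-DUB were called higher then, with log2 changes of 0.204 to 0.602 (median 0.432), and 1 of 6 on day 5 (median 0.0469), where 23.4% and 14.8% of all genes were called higher. *Kdm6b*, an H3K27 demethylase, rose from 14.8 ± 0.777 to 22.4 ± 1.52 scaled TPM on day 7 and *Kdm6a* from 29.7 ± 1.28 to 40.4 ± 1.18. *Bap1*, the catalytic subunit of PR-DUB, was the gene called on day 5 (log2 0.40, adjusted p = 0.00145).

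Of 13 tested partners and readers of DNA methylation, 4 were higher and 3 lower on day 5, and 8 were higher and 4 lower on day 7 (medians 0.073 and 0.172), where 14.8% and 17.9% of all genes were called on day 5 and 23.4% and 25.8% on day 7. *Uhrf1*, which brings Dnmt1 to newly replicated DNA, fell from 35.5 ± 0.729 to 21.1 ± 1.61 scaled TPM on day 5 and from 31.7 ± 2.22 to 16.6 ± 1.36 on day 7. *Hells*, a remodeller needed for methylation, fell from 10.8 ± 0.567 to 3.91 ± 0.942 and from 14.3 ± 1.58 to 6.71 ± 0.783. *Mbd2*, which binds methylated DNA, rose from 81.2 ± 3.16 to 116.3 ± 4.21 and from 60.2 ± 2.78 to 102.9 ± 5.75. *Gadd45a*, a stress gene linked to demethylation, rose from 16.7 ± 2.57 to 30.5 ± 4.20 and from 10.3 ± 1.35 to 28.9 ± 5.74.

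The 16 genes of the DNA replication list mark dividing cells and include *Mki67* and *Top2a*, which are not specific to the copying of DNA. All 16 were lower on both days (medians -0.853 and -0.965), where 17.9% and 25.8% of all genes were called lower. Their summed level was 1048 to 1081 scaled TPM with shRNA-CON and 618.5 to 683.1 with shRNA-RUS on day 5, and 1001 to 1024 and 488.1 to 529 on day 7. *Mki67* fell from 41.2 ± 2.71 to 18.5 ± 2.84 on day 5, and *Cdc6* from 6.00 ± 0.827 to 2.53 ± 0.359. *Top2a* fell from 170.4 ± 10.01 to 67.8 ± 4.43 on day 7, and *Mcm3* from 30.1 ± 2.00 to 13.3 ± 1.77. They shared the sign of *Dnmt1*, *Ezh2* and *Suz12* in the knockdown, and from day 5 to day 7 with shRNA-RUS 2 of the 16 were called higher, as *Dnmt1* and *Suz12* were, and 9 lower, against 35.0% and 25.8% of all genes. Their part in those results was not tested.

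Genes known from other work as targets of DNA methylation or PRC2 were mostly near 0, and neither mark was measured here. In a list of 40 genes made of *Hox* genes and *Cdkn2a*, all classical Polycomb targets, 39 stayed under 0.5 scaled TPM in every library of each group, and only *Cdkn2a* was tested, at 4.99 ± 1.22 with shRNA-CON and 3.34 ± 0.358 with shRNA-RUS on day 7 (log2 -0.53, adjusted p = 0.0191, and 0.0532 without replicate 4 of shRNA-RUS). Of 15 germline genes, known for promoter methylation in somatic cells, 3 were tested on day 5, of which 1 was lower, and 7 on day 7, of which 2 were lower, which is about the share of all genes (17.9% and 25.8%). Of the germline genes, 12 or 13 in a group stayed under 0.5 scaled TPM in every library. Among the tested genes of both lists, none was called higher with shRNA-RUS on either day. The genes that were not tested could not be called. *Ddx4*, a germ cell helicase, fell from 2.04 ± 0.153 to 1.17 ± 0.253 on day 5.

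**Figure D5:**
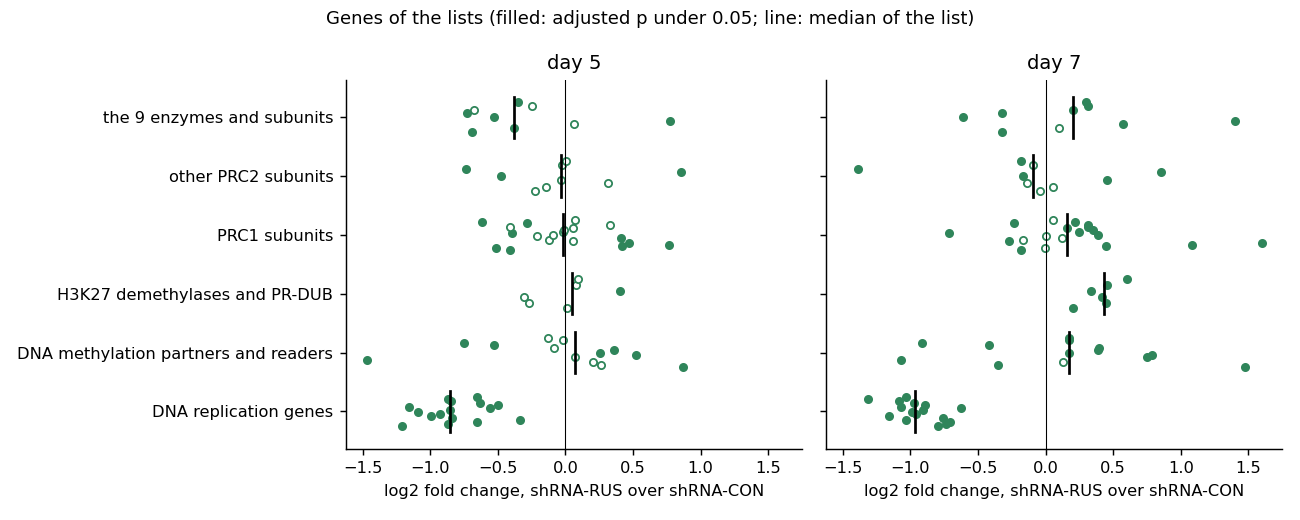
Log2 fold change of shRNA-RUS over shRNA-CON (horizontal axis) for each tested gene of 6 lists (rows) on day 5 and day 7, filled where the adjusted p was under 0.05, with the median of a list as a black line. All 16 DNA replication genes lay below 0 on both days, and all 6 H3K27 demethylase and PR-DUB genes lay above 0 on day 7.

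The 4 members whose group means spanned at least 1 log2 unit were set against 15899 genes that averaged 1 TPM or more, by the root mean square difference of centred log2 profiles over the 16 libraries. The genes nearest to *Ezh1* were *Rab6b* (0.102 log2), *Maml1* (0.113) and *Sash1* (0.113). Nearest to *Tet1* were *Gm38394* (0.138), *Tnrc6b* (0.141) and *Zfp382* (0.158). Their log2 changes with shRNA-RUS on day 7 were -0.0018, -0.0196 and -0.0096, against 0.20 for *Tet1*, so they did not share its rise on that day. Nearest to *Tet2* were *Dmxl2* (0.0779), *Apc* (0.0823) and *Strn* (0.0827), and nearest to *Tet3* were *4931428F04Rik* (0.0711), *Add2* (0.0845) and *Cdk12* (0.0854). These likenesses are a description over libraries that share their groups.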

How the data were processed

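RNA-seq of polyA RNA was analysed in 16 libraries, 4 for each shRNA and day, grouped as labelled. The authors aligned reads to mm10 (GRCm38), quantified them with RSEM and deposited 1 table per day with TPM per library, which sum to 1000000 and keep no counts, so the depth of a library is unknown and no interval that needs it is given. The tables also hold the authors' own comparison with DESeq2 (base mean, log2 fold change, its error, statistic and p-values), which was not used.

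Lines without a gene name (3 on day 5) were left out, and the days were joined over 55365 lines with the same symbol, with 106 left out. Median-ratio factors scaled the libraries, taken from the 8 libraries of a day for the knockdown and from all 16 for levels and changes between days. Then log2(value + 0.1) was tested for genes averaging 0.1 TPM or more with limma 3.58.1 in R 4.3.3 (lmFit, eBayes with a trend, two-sided, Benjamini-Hochberg over all genes tested, threshold 0.05). Ratios were compared with exact permutation tests in Python 3.11.15 (scipy 1.17.1). Both tests were checked on simulated data. Other settings tried were adding 1 or 0.01, testing genes from 1 TPM upwards or all genes, unscaled TPM, quantile and 75th percentile scaling, no trend, the replicate number as a block, and leaving out single libraries.

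The members and lists were chosen with earlier results of these data known. Besides the members and *Gm20754*, the genes named were, from each list and day, up to 2 called genes with the largest increase and 2 with the largest decrease that averaged 1 TPM or more, *Eed* and single cell type markers being named outside this rule after their values were seen, and for members spanning at least 1 log2 unit the 3 nearest profiles. Positions are from GENCODE vM21 (GRCm38) by symbol and promoters from RefSeq (GRCm38.p6), where all 9 members matched 13 windows.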

Additional observations from a re-analysis of the deposited data

Results flagged for a closer look

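In 5 of 116 groups of 4 libraries checked with Dixon's test, 1 library stood apart from the other 3, and chance gives about 1 in 20. They were *Tet2* in replicate 3 of shRNA-RUS on day 7 (23.39 scaled TPM, the others 25.1 to 25.4), *Ezh2* in replicate 2 of shRNA-RUS on day 5 (52.6, the others 59.1 to 59.9), *Suz12* in replicate 1 of shRNA-CON on day 5 (32.75, the others 27.9 to 28.6), *Gadd45a* in replicate 4 of shRNA-RUS on day 5 (24.23, the others 31.6 to 33.0) and the ratio of *Ezh2* to *Ezh1* in replicate 1 of shRNA-RUS on day 5 (3.613, the others 2.97 to 3.07).

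The knockdown effect differed between day 5 and day 7 for 7 of the 9 genes by the interaction term of limma. The difference of the log2 changes, day 7 minus day 5, was 0.3571 for *Dnmt1*, 0.4626 for *Dnmt3a*, 0.8674 for *Tet1*, 0.5432 for *Tet2*, 0.6336 for *Tet3*, 0.6115 for *Ezh1* and 0.3885 for *Suz12*.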

How the results depend on the processing

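Depth is unknown, and 4 libraries a group limit an exact test to p = 0.0286. Of the results for single members under all alternatives, 901 kept their direction and side of the threshold, 58 lost the call, 12 gained it and 10 changed sign. With TPM as deposited the values that changed sign were *Dnmt3b* on day 5 (-0.0799), *Ezh1* (0.12) and *Ezh2* (0.0867) between days with shRNA-CON, *Ezh2* between days with shRNA-RUS (0.17) and the difference between days for *Ezh2* (0.0802). *Ezh1* between days with shRNA-CON was also 0.0211 with the 75th percentile, and *Ezh2* 0.0278 with quantile normalization. With 1 library left out, *Dnmt3b* on day 5 ran from -0.0235 to 0.17, *Ezh1* between days with shRNA-CON from -0.0794 to 0.00835, the log2 ratio of *Ezh2* to *Ezh1* between days with shRNA-CON from -0.0787 to 0.0133 and that of *Dnmt3a* to *Dnmt3b* with shRNA-RUS from -0.0310 to 0.0965. Members lower on day 7 than on day 5 with shRNA-CON were 0 with TPM as deposited and with the 75th percentile, and 0 to 1 with 1 library left out (0 without replicate 1 of day 5 or replicate 2 of day 7). With shRNA-RUS they were 0 with no filter, TPM as deposited, quantile normalization, the 75th percentile, eBayes without a trend or the replicate block, and 0 to 1 with 1 library left out. Ratio tests called ran from 0 to 10, since the adjusted p of such a test depends on how many tests reach the smallest p. The cause of the other changes was not tested. The same replicate number did not pair libraries (correlations of deviations of -0.252 to 0.101 over 4 pairs of groups), and with the replicate number as a replicate block 3 members were called lower on day 5. The knockdown calls it ended were *Dnmt3a* (adjusted p = 0.0685) and *Tet3* (adjusted p = 0.0587) on day 5 and *Tet1* (adjusted p = 0.0610) and *Suz12* (adjusted p = 0.0520) on day 7. It also ended those of *Dnmt3b* (shRNA-CON) and *Ezh2* (shRNA-RUS) between days and of *Suz12* for the difference between the days (adjusted p = 0.0555, 0.0698 and 0.0571).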
